A study of Mus musculus with 41 samples.

Results

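The genes examined were the cytosolic ribosomal protein genes, which encode the protein parts of the ribosome outside mitochondria. They were chosen by symbol among the protein-coding genes on chromosomes 1 to 19 and X, as every symbol that starts with Rpl or Rps and a digit, plus Rplp0, Rplp1, Rplp2 and Rpsa, without the Rps6k kinases and without entries annotated as pseudogenes. This gave 86 of 21755 genes. Of these, 77 were core ribosomal proteins, 46 of the large and 31 of the small subunit, and 9 were paralogs or other symbol matches (Rpl3l, Rpl10l, Rpl39l, Rpl22l1, Rps27l, Rpl36al, Rpl7l1, Rps27rt and Rps19bp1). The values that follow describe how often, how widely and how strongly the promoters of these genes carried 4 histone post-translational modifications (hPTMs) in 8 mouse cell types and tissues.

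The study profiled H3K18la (lactylation of lysine 18 of histone H3), H3K27ac, H3K4me3 and H3K27me3 by CUT&Tag, where antibody-tethered Tn5 transposase inserts sequencing adapters into the DNA next to the mark. E14 embryonic stem cells, an established mouse line, were grown with LIF either in serum (mESC-ser) or in 2i (mESC-2i) and were used as whole cells. All other samples were used as nuclei and carried the strain label C57BL/6 (C57Bl6/J in the methods of the study). The methods describe the mice used for tissue samples as female and 8 to 12 weeks old. They give no separate sex or age for the donors of the cultured myoblasts and bone marrow-derived macrophages. Primary myoblasts (MB) and the myotubes differentiated from them (MT), frozen gastrocnemius muscle (GAS), bone marrow-derived macrophages grown with M-CSF (BMDM), macrophages sorted by CD45, CD11b, F4/80 and CD64 from calf muscle after hind-limb ischemia (PIM) and white adipocyte nuclei (ADIPO) made up the panel. The ADIPO nuclei were pulled out on streptavidin beads from epididymal fat of 10-week-old AdipoCre-NuTRAP mice, in which an adipocyte Cre tags the nuclei. The methods give this fat as epididymal and these mice as female, and their sex was not checked here. GAS is whole muscle tissue. Of the markers of other cell types, H3K18la was found there at 2 of 2 for endothelium, 2 of 2 for fibroblasts, 1 of 5 for macrophages, 1 of 5 for adipocytes and neither of those for T and B cells, but both endothelial markers also had it in BMDM and PIM. All samples carried the label of a control treatment.

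Each combination of cell type and mark had 1 peak list, called by the authors on pooled samples. There were 8 lists for H3K18la, 5 for H3K27ac, 4 for H3K4me3 and 7 for H3K27me3, from 41 samples, and 7 lists rested on 1 sample each, among them H3K18la in MB and BMDM. No list gave a value for each sample. The replicate error could therefore not be measured, no test was run, and SD below is the spread over cell types. A gene was called for a mark when a peak overlapped the window within 2000 bp of any of its transcription start sites (TSS) by at least 1 bp. The H3K18la lists held 13550 to 36813 peaks that covered 22.6 Mb (BMDM) to 137 Mb (MT). Marker genes were checked for H3K18la. All 5 stem cell markers had it in both stem cell lists and none in the other 6, all 5 muscle markers had it in MT and GAS, all 5 macrophage markers in BMDM and PIM and all 5 adipocyte markers in ADIPO, but MB had only Myod1 of the muscle markers. Outside the cells they mark, muscle markers were called at 1 of 5 (Acta1) in ADIPO, macrophage markers at 1 of 5 in each stem cell list, GAS and ADIPO and at 2 of 5 in MT, adipocyte markers at 1 of 5 in MB, GAS and BMDM and at 2 of 5 in PIM, and the T cell marker Cd3e in MT.

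Ribosomal protein genes are transcribed at high rates in nearly all growing cells, from short genes whose promoters mostly lack a TATA box. Transcription starts inside a run of pyrimidines (C and T), and the messenger then begins with the 5' terminal oligopyrimidine motif through which growth signalling controls translation. H3K27ac and H3K4me3 mark active promoters, H3K27me3 marks genes held silent by Polycomb, and H3K18la has been tied to lactate, a product of glycolysis.

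The promoter sequences of 8 of these genes are shown because they span the H3K18la results, from no list (Rplp0) over 2 (Rpl5), 3 (Rpl31, Rpl3l), 4 (Rps18), 5 (Rps6) and 6 (Rpl34) to 7 lists (Rpl19). Each runs 5' to 3' from 50 bases before the RefSeq start to the 20 bases from it (build GRCm38.p6), with the longest pyrimidine run of the stretch in capitals.
Rplp0 (chr5:115559417-115559486, plus strand): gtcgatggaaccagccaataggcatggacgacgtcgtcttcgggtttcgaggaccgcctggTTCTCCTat
Rpl5 (chr5:107900478-107900547, plus strand): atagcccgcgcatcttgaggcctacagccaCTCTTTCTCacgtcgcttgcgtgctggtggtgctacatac
Rpl31 (chr1:39367801-39367870, plus strand): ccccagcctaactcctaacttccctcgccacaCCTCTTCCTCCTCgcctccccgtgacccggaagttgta
Rps18 (chr17:33955646-33955715, minus strand): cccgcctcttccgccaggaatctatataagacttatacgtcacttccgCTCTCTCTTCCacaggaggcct
Rps6 (chr4:86857348-86857417, minus strand): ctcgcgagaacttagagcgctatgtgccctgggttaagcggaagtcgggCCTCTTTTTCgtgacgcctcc
Rpl34 (chr3:130730318-130730387, minus strand): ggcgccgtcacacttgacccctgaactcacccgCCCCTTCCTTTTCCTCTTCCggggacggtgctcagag
Rpl19 (chr11:98026874-98026943, plus strand): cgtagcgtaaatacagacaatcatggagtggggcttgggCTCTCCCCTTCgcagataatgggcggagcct
Rpl3l (chr17:24727776-24727845, plus strand): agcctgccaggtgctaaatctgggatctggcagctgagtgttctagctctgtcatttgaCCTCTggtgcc

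The run was 20 bases long in Rpl34, 13 in Rpl31, 11 in Rpl19 and Rps18, 10 in Rps6 and 9 in Rpl5. It was 7 bases in Rplp0 and 5 in Rpl3l, the muscle paralog of Rpl3. RefSeq promoters were at hand for 66 of the 86 genes. A run of at least 8 pyrimidines that touched the 20 bases to either side of the start was found in 32 of these 66 promoters (48.5%), against 20.5% of 16433 protein-coding genes and 17 of 69 mitochondrial ribosomal protein genes. It stood in 19 of 31 members with H3K18la in 5 or more lists and in 13 of 35 members with H3K18la in 4 or fewer. Whether the run goes with H3K18la was not tested. The RefSeq start lay within 50 bp of the main GENCODE start in 48 of the 66, and 21 of these 48 had the run.

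Over the whole 300-base promoter and both strands, the ETS motif CCGGAAG occurred in 25 of 66 members (37.9%; 12.5% of all promoters), and the SP motif GGGCGG in 40 (60.6%; 48.8%). The YY1 motif AAGATGGC occurred in 5 (7.58%; 3.30%), the NRF1 motif GCATGCGC in 3 (4.55%; 3.82%), CCAAT in 20 (30.3%; 38.7%) and TATAAA in 6 (9.09%; 12.9%). Mitochondrial ribosomal protein genes had CCGGAAG in 36.2%, GGGCGG in 47.8%, AAGATGGC in 17.4% and GCATGCGC in 11.6%, so that the ETS motif was as frequent there and the YY1 and NRF1 motifs more so. CCAAT was in 39.1% of them and TATAAA in 5.80%. Split by H3K18la as for the pyrimidine run, CCAAT stood in 13 of 31 and 7 of 35 members, CCGGAAG in 13 and 12, and GGGCGG in 19 and 21. AAGATGGC stood in 2 and 3, GCATGCGC in 2 and 1, and TATAAA in 2 and 4. CCGGAAG and AAGATGGC can share the letters AAG, and each was counted on its own. The genes themselves were short, with a median length of 3328.5 bp against 17414 bp for all protein-coding genes and 7899.5 bp for the mitochondrial ribosomal protein genes. A window of 500 bp to either side of the TSS was CpG-rich (at least 50% G and C, and CpG at 0.6 or more of the expected number) in 76 of 86 members (88.4%) and in 46.1% of all genes. For that reason the 10028 CpG-rich genes are given below as a second comparison. A snoRNA gene lay inside 30 members, and 21 shared their window with the start of another protein-coding gene.

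**Figure D1:**
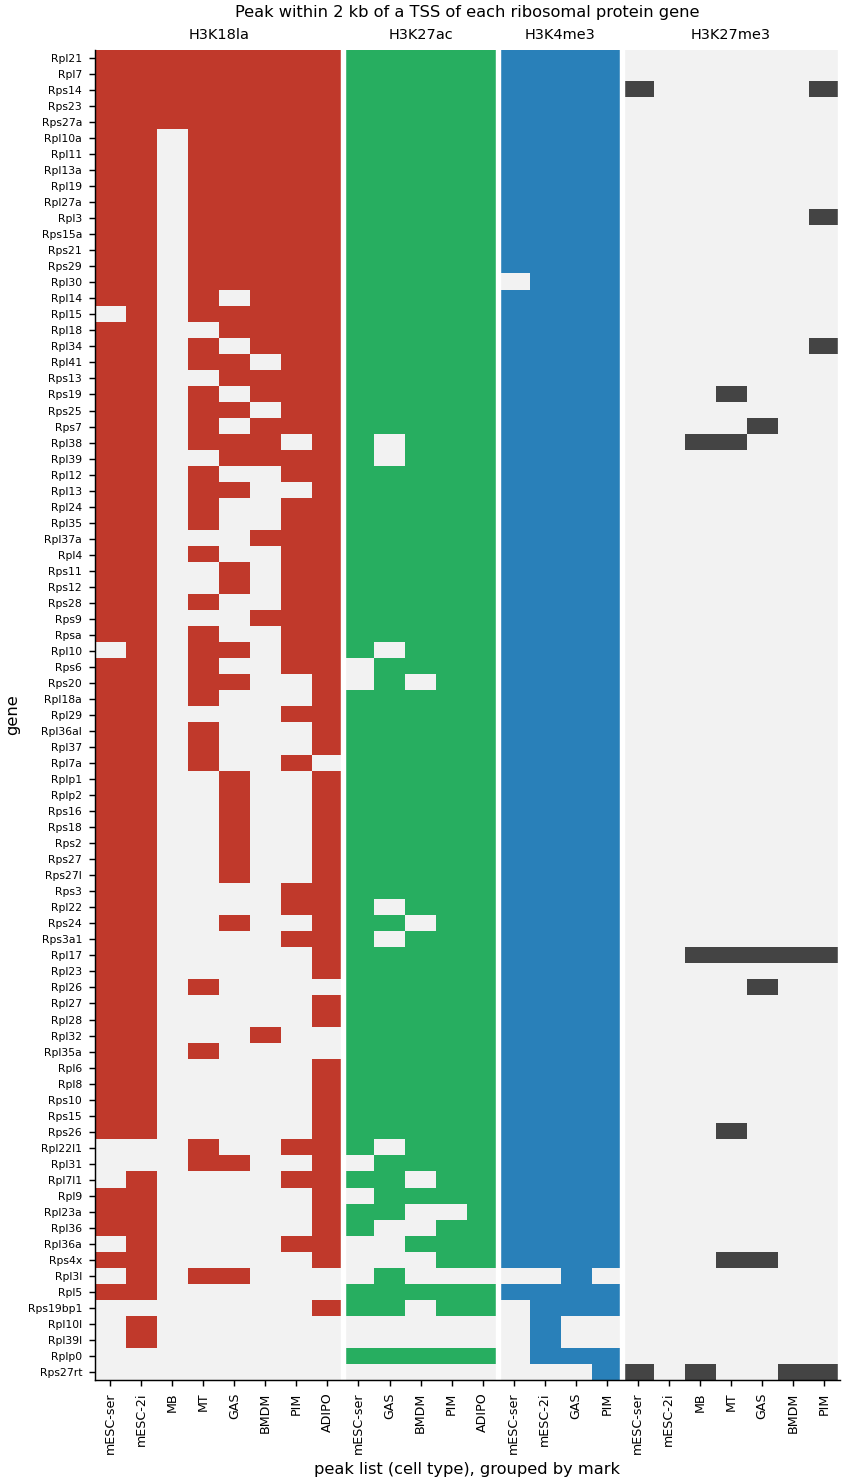
Each row is 1 of 83 ribosomal protein genes (3 of the 86 are left out) and each column 1 of the 24 peak lists, grouped by mark, and a filled cell means a peak within 2 kb of a TSS. H3K27ac and H3K4me3 fill nearly every row, H3K27me3 fills 21 cells, and H3K18la divides the genes, with both stem cell columns and ADIPO nearly full and 5 cells filled in MB.

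In the full lists, H3K4me3 and H3K27ac were called at almost all ribosomal protein genes. H3K4me3 was called at 79 of 86 members in mESC-ser (48.8% of all genes), 84 in mESC-2i (61.8%), 83 in GAS (64.2%) and 83 in PIM (59.4%). The mean over the 4 lists was 95.6% ± 2.58 (SD). The 77 core genes were called without exception in mESC-2i, GAS and PIM, and in mESC-ser Rpl30 and Rplp0 were missing. CpG-rich genes as a whole had H3K4me3 in 89.96% ± 7.08 (SD, 4 lists) and mitochondrial ribosomal protein genes in 97.4% ± 5.13, so near-complete H3K4me3 was shared with other promoters of this kind.

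H3K27ac was called at 76 members in mESC-ser (40.2% of all genes), 74 in GAS (47%), 75 in BMDM (34%), 81 in PIM (48.8%) and 82 in ADIPO (46.1%). The mean was 90.2% ± 4.24 (SD, 5 lists), against 66.9% ± 8.41 for CpG-rich genes and 79.7% ± 15.9 for mitochondrial ribosomal protein genes, which at 96.2% exceeded the members in PIM. The mean at members fell to 35.1% with only the 5000 peaks of largest total signal in each list. It fell to 60.2% with the lists reduced to equal covered bases. In ADIPO all 77 core genes had H3K27ac. The core genes without H3K27ac in GAS were Rpl10, Rpl22, Rpl36, Rpl36a, Rpl38, Rpl39, Rps3a1 and Rps4x. The 4 genes on X (Rpl10, Rpl36a, Rpl39 and Rps4x) had H3K27ac in 13 of 20 combinations of gene and list (65%; 94.8% for all 77 core genes). They had H3K4me3 in 16 of 16 (99.4% for all core genes). The share over all genes on X was not computed. Rps6, whose product is phosphorylated in response to growth signals, had H3K27ac in 4 of 5 lists and was without it in mESC-ser.

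H3K18la split the family by cell type. It was called at 81 of 86 members in mESC-2i (37.8% of all genes), 76 in ADIPO (44.7%), 74 in mESC-ser (33.4%), 46 in PIM (37.8%), 43 in MT (34.8%), 38 in GAS (36.1%), 28 in BMDM (18.5%) and 6 in MB (11.1%). The mean was 57.0% ± 30.6 (SD, 8 lists). That SD exceeds the 4.24 of the 5 H3K27ac lists, but the order turned when the lists of each mark were reduced to equal covered bases (11.53 for H3K18la and 36.8 for H3K27ac, which then ran from 4 members in GAS to 81 in PIM). With the 5000 peaks of largest total signal the SDs were 19.3 and 12.4. In both stem cell lists and in ADIPO the members exceeded the CpG-rich genes (46.3%, 54.0% and 65.2% in mESC-ser, mESC-2i and ADIPO). In MT, GAS and PIM they stood close to them: 50% against 49.4%, 44.2% against 48.8% and 53.5% against 53.0%. In BMDM they were at 32.6% against 26.0%, and in MB, at 6.98%, they were below both all genes and the CpG-rich genes (13.9%). The mitochondrial ribosomal protein genes were also low in MB, at 5.13%. In whole muscle (GAS), fewer cells with the mark and less of it in each cell cannot be told apart.

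**Figure D2:**
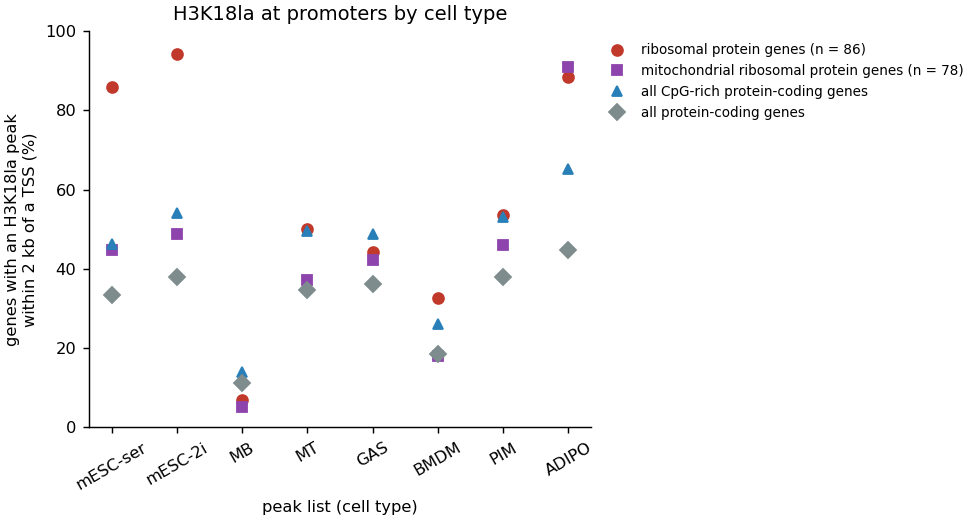
Share of genes with an H3K18la peak within 2 kb of a TSS (%, vertical axis) in each of the 8 peak lists, for ribosomal protein genes, mitochondrial ribosomal protein genes, CpG-rich genes and all protein-coding genes. The ribosomal protein genes stand at 86.05% and 94.2% in the stem cell lists, above the other 3 sets, at 88.4% in ADIPO beside 91.0% for the mitochondrial set, and close to the CpG-rich genes in MT, GAS and PIM.

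The order of the cell types did not follow the extent of the lists. MT had the largest covered length (137 Mb) and 43 members called, and ADIPO had 76.6 Mb and 76. The mitochondrial ribosomal protein genes, which serve the separate ribosome of that organelle, reached 91.0% in ADIPO but 44.9% and 48.7% in mESC-ser and mESC-2i. The high share in ADIPO was therefore common to both gene sets, and the high share in the stem cells was not. How many peaks were kept mattered more for ADIPO than for the stem cells. Among the 5000 peaks of largest total signal in each list, one lay at 41 members in mESC-ser (12.3% of all genes), 35 in mESC-2i (14.0%) and 3 in ADIPO (9.16%). The other 5 lists had 1 to 4 (1.16% to 4.65% of members), below the 4.51% to 8.30% of all genes in each of them. Reduced instead to the covered bases of the BMDM list, the counts were 15 in mESC-ser (5.54%), 8 in mESC-2i (3.75%) and 1 in ADIPO (4.99%), against 28 in BMDM (18.5%).

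The members also differed among themselves. H3K18la was present in all 8 lists at 6 members (2.69% of all genes), a count that was 16 without the MB list, 3 among members with a window of their own and 0 under both reductions of the lists. It was present in 7 lists at 10 (5.16%), in 3 to 6 lists at 64 (36.5%), in 2 lists at 1 (13.3%), in 1 list at 3 (12%) and in none at 2 (30.3%). The most frequent pattern was H3K18la in mESC-ser, mESC-2i and ADIPO and in no other list. It held for 15 members, among them Rpl6, Rpl8, Rpl9, Rpl17, Rpl23, Rpl23a, Rpl27, Rpl28, Rpl36, Rps4x, Rps10, Rps15 and Rps26, and 1.94% of all genes had it. Large subunit core genes were called in 214 of 368 combinations (58.2%) and small subunit core genes in 158 of 248 (63.7%). Core genes that host a snoRNA had 58.3% and those without one 61.7%.

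Among the 6 members in all 8 lists were Rpl7, Rpl21, Rps14, Rps23 and Rps27a, the last of which encodes ubiquitin fused to a ribosomal protein. Rpl7, Rps14 and Rps27a shared their window with the start of another protein-coding gene (Rdh10, Ndst1 and Clhc1), so that peaks there cannot be assigned to one gene. For Rps14, GENCODE also lists a start far upstream, and the strongest peak in MB, MT, GAS, BMDM and PIM lay there, between -29819 and -18209.5 bp from the main start. With 1 TSS for each gene, 5 members remained in all 8 lists. Rpl21 (chr5:146832890-146837032) had peaks of 12971 bp in mESC-ser, 12446 bp in mESC-2i, 1423 bp in MB, 2891 bp in MT, 1421 bp in GAS, 528 bp in BMDM, 1262 bp in PIM and 2201 bp in ADIPO. Its maximum lay within 21.5 bp of the main TSS in every list, at percentile 67.9 (MB) to 97.3 (MT) of the list. Rps23 (chr13:90922958-90924950) had a mean percentile of 82.9 over the lists, from 48.9 in MB to 95.4 in mESC-ser.

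Rplp0, which encodes the acidic protein P0 of the large subunit stalk, was the core gene without H3K18la in any list. Its promoter carried H3K27ac in 5 of 5 lists, at percentiles 53.1 to 87.3, and H3K4me3 in 3 of 4, the exception being mESC-ser. The nearest H3K18la peaks were 4513 bp from its main TSS in ADIPO and 5166 bp in mESC-2i, and 9826 to 23233 bp away in the other 6 lists. Rpl5, which with Rpl11 forms the particle that restrains Mdm2, had H3K18la in the stem cell lists only, with peaks of 2815 and 2872 bp, H3K27ac in 5 of 5 lists and H3K4me3 in 4 of 4. Outside the stem cells its nearest H3K18la peak was at least 21091 bp away. Rpl11 itself had H3K18la in 7 lists. Rpl31 had it in MT, GAS and ADIPO but in neither stem cell list, and together with Rplp0, Rpl22l1, Rps19bp1 and Rps27rt it made up the 5 members without H3K18la in both stem cell lists.

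Other well-known members fell between these. Rps19, mutated in Diamond-Blackfan anemia, had H3K18la in all lists but MB and GAS. Rpl3, at the peptidyl transferase center, lacked it only in MB. Rplp1 and Rplp2, the partners of Rplp0 in the stalk, had it in the stem cell lists, GAS and ADIPO. Rpsa, also known as the laminin receptor, and Rps6 had it in the stem cell lists, MT, PIM and ADIPO. Of these 6 genes, H3K27ac was missing once, at Rps6 in mESC-ser, and H3K4me3 was present in all 4 lists.

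Where all 3 active marks were profiled, members with H3K27ac and H3K4me3 but without H3K18la could be counted. In mESC-ser 69 members had all 3 marks (23.9% of all genes) and 4 had H3K27ac and H3K4me3 alone (12.3%). In GAS these counts were 35 (29.4%) and 39 (14.8%), and in PIM 46 (34%) and 35 (14.2%). The mean share of members with all 3 marks over these lists, 58.1%, fell to 14.3% with the 5000 largest peaks of each list and to 6.59% with equal covered bases, and in GAS the H3K27ac list covered 197 Mb against 123 Mb for H3K18la. Seen from H3K27ac, 70 of 76 members with that mark also had H3K18la in mESC-ser (92.1%; 64.7% of all genes with H3K27ac) and 76 of 82 in ADIPO (92.7%; 85.96%). In GAS this was 35 of 74 (47.3%; 64.8%), in PIM 46 of 81 (56.8%; 70.4%) and in BMDM 28 of 75 (37.3%; 48.2%). The members were thus above all acetylated genes in 2 lists and below them in 3. The mitochondrial set was below in 4 of the 5 (53.2%, 50.8%, 28.6% and 48.0% in mESC-ser, GAS, BMDM and PIM) and at 92.8% in ADIPO.

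Pairs of lists from related cells or tissues were then compared. All 74 members called in mESC-ser were also called in mESC-2i (4.79% of all genes were called in mESC-ser alone), and 7 more were called there (9.19% of all genes): Rpl10, Rpl10l, Rpl15, Rpl36a, Rpl39l, Rpl3l and Rpl7l1. The mESC-ser list covered 82.4 Mb and the mESC-2i list 128 Mb. From MB to MT the 6 members called in MB stayed called (0.91% of all genes were called in MB alone), and 37 were called in MT alone (24.6% of all genes). The MT list covered 137 Mb and the MB list 40.5 Mb, and MB rested on 1 sample, so that extent and differentiation cannot be told apart. MT and GAS shared 25 members, with 18 called in MT alone (10.2%) and 13 in GAS alone (11.5%). BMDM and PIM shared 26, with Rpl32 and Rpl38 in BMDM alone (1.34%) and 20 in PIM alone (20.6%), on 22.6 Mb against 68.9 Mb. With the 5000 largest peaks of each list BMDM and PIM each had 1 member. With equal covered bases the direction turned, to 28 in BMDM and 1 in PIM. GAS and ADIPO shared 37, with Rpl3l in GAS alone (9.47%) and 39 in ADIPO alone (18.1%), on 123 Mb against 76.6 Mb. This difference was lost with the 5000 largest peaks of each list (4 members in GAS and 3 in ADIPO) and with equal covered bases (2 and 1).

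In the stem cells the H3K18la peaks at ribosomal protein genes were wide. The median width was 6217 bp at members in mESC-ser against 3773 bp at all called genes, and 9161 bp against 5623.5 bp in mESC-2i. Elsewhere they were narrower or alike: 1570 against 2694 bp in MB, 2240 against 2859 bp in MT, 1838 against 2391 bp in GAS, 661 against 955.5 bp in BMDM, 1629.5 against 1648 bp in PIM and 1878.5 against 1928 bp in ADIPO. Peaks over 10 kb were found at 19 of 74 called members in mESC-ser (25.7%; 12.9% of all called genes) and at 32 of 81 in mESC-2i (39.5%; 26.7%). In the 6 other lists there were 4 among 237 calls (1.69%; 4.19%), at Rplp2 in GAS and ADIPO, Rpl3l in GAS and Rps14 in MT. The widest was the 46153 bp peak over Rplp2 in mESC-2i.

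**Figure D3:**
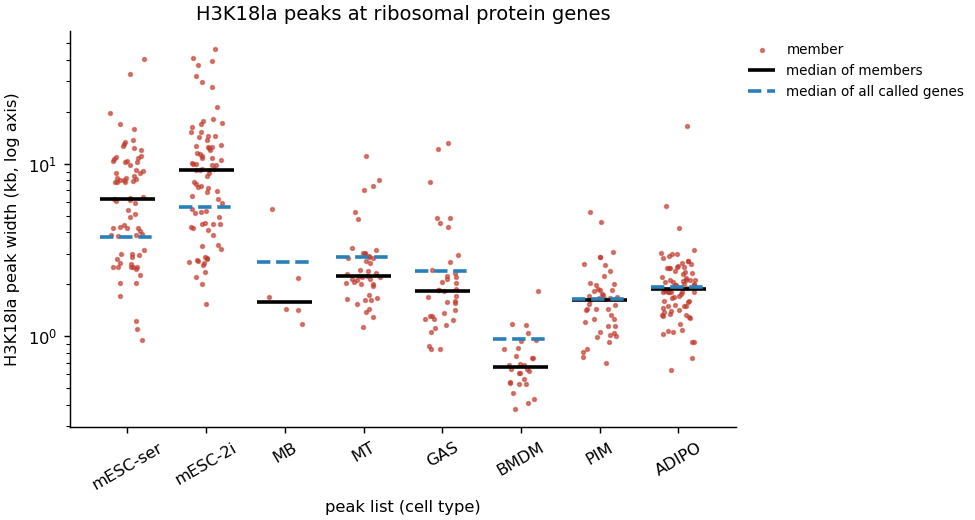
Width of the H3K18la peak of highest maximum signal at each called ribosomal protein gene (kb, log axis) in the 8 lists, with the median of the members (black) and of all called genes (blue, dashed). In mESC-ser and mESC-2i the member median (6217 and 9161 bp) lies above the dashed line, and in the other 6 lists at or below it.

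Most of the added width lay downstream of the start. In mESC-ser the peaks reached a median of 1903.5 bp upstream and 4930 bp downstream of the main TSS, and in mESC-2i 2005 and 6088 bp. For CpG-rich genes the downstream reach was 1943 and 2718.5 bp, and for mitochondrial ribosomal protein genes 1522 and 2494 bp. Upstream, these sets reached 1465 and 1286 bp in mESC-ser, less than the members, and 1990.5 and 2090 bp in mESC-2i. In these lists the peak covered the whole annotated gene at 34 of 74 members (45.9%) in mESC-ser and 48 of 81 (59.3%) in mESC-2i, against 7.8% and 11.8% of all called genes and 17.1% and 31.6% of called mitochondrial ribosomal protein genes. Since the members are short, the share covered depends on gene length as well as on reach. In the other 6 lists the downstream reach was 226 to 1075 bp, and the whole gene was covered at 0 to 4 members.

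H3K4me3 peaks at members were also wide in the stem cells. Its median width at members was 5969 bp in mESC-ser (3308 bp at all called genes) and 4305.5 bp in mESC-2i (2469 bp), with 4437 and 3339.5 bp downstream. In GAS and PIM it was 2685 and 3320 bp, against 2342 and 2823 bp. In mESC-ser both marks covered the whole gene at 30 of the 73 members with both, H3K18la alone at 4 and H3K4me3 alone at 14. In mESC-2i this was 32 of 80, with 16 and 6. H3K27ac peaks in mESC-ser were not wider at members (1724.5 against 1803 bp).

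**Figure D4:**
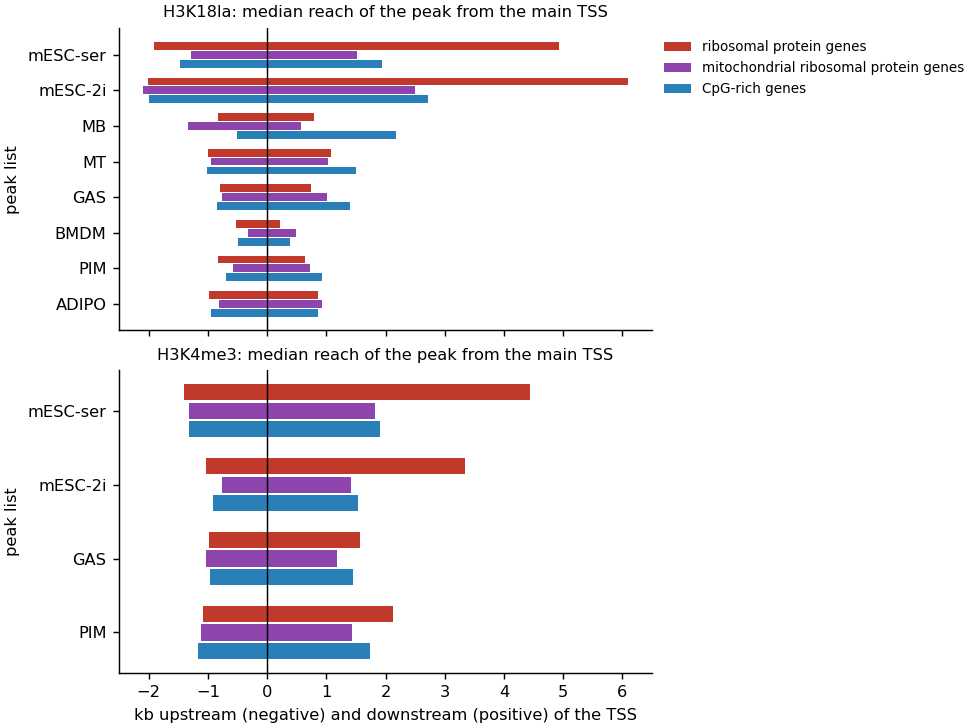
Median distance (kb) that the H3K18la peak (top) and the H3K4me3 peak (bottom) reached upstream (left) and downstream (right) of the main TSS, in each list, for ribosomal protein genes, mitochondrial ribosomal protein genes and CpG-rich genes. The downstream bars of the ribosomal protein genes are long in mESC-ser and mESC-2i for both marks, at 4930 and 6088 bp for H3K18la, and the upstream bars differ less from the other sets, at 1903.5 and 2005 bp.

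The maxima of the H3K18la peaks at members ranked at or below those of other called genes in 7 of 8 lists. Ranked by maximum signal within its own list, the median percentile at members was 47.2 in mESC-ser and 43.0 in mESC-2i, against 51.7 and 53.0 for all called genes. It was 36.7 against 51.9 in MT, 52.2 against 67.1 in GAS, 50.6 against 52.5 in BMDM, 51.1 against 61.3 in PIM and 45.1 against 60.6 in ADIPO. MB, with 6 members called, was the exception at 52.5 against 43.2. The mitochondrial set was near or below the members in mESC-ser (43.5), mESC-2i (43.6), MB (27.1), BMDM (47.9) and PIM (46.4). It was above them in MT (47.8), GAS (66.1) and ADIPO (67.8). Ranked by total signal over the peak instead, the stem cell members stood at 77.8 and 71.4 against 59.7 and 60.7, while the other 6 lists stayed between 33.7 and 51.3. Members in the stem cells thus combined middling maxima with large sums. H3K4me3 maxima at members were at percentiles 62.9 to 90.6, above all called genes (57.0 to 77.5) in each of the 4 lists. H3K27ac maxima were at 60.8 to 80.5, above all called genes in 4 of 5 lists. For H3K4me3 the mitochondrial set stood at 71.5, 80.2, 90.1 and 81.8 in mESC-ser, mESC-2i, GAS and PIM, and the members at 62.9, 73.5, 90.6 and 88.9. For H3K27ac the mitochondrial set was above the members in GAS (87.3 against 80.5) and ADIPO (71.8 against 62.4). It was below them in mESC-ser, BMDM and PIM.

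The H3K18la maximum lay within 500 bp of the main TSS at 65.8% (GAS) to 83.7% (MT) of called members in the 6 lists outside the stem cells, where all called genes had 20.7% (MB) to 57.8% (ADIPO). The mitochondrial set had 25.0% (MB) to 83.1% (ADIPO) there. It was near the members in PIM (69.4% against 71.7%) and ADIPO (83.1% against 82.9%). In mESC-ser and mESC-2i the H3K18la maximum lay this close at 36.5% and 42.0% of members, near the 32.6% and 32.9% of all called genes. The mitochondrial set had 37.1% and 44.7% in these 2 lists. The mean of the 8 median positions at members was -20.5 bp ± 84.5 (SD). For H3K4me3 the maximum lay within 500 bp at 77.2%, 60.7%, 90.4% and 90.4% of members in mESC-ser, mESC-2i, GAS and PIM, against 63.8%, 62.5%, 67.1% and 62.7% of all called genes. The mitochondrial set had 85.7%, 87.2%, 89.7% and 88.5%, above the members in both stem cell lists.

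H3K27me3 was nearly absent from these promoters. It was called at 0 to 5 of 86 members in the 7 lists (3.49% ± 2.12, SD), against 27% of all genes in mESC-ser, 22.5% in mESC-2i, 12.5% in MB, 20.1% in MT, 23.9% in GAS, 19.2% in BMDM and 26.4% in PIM. The mitochondrial ribosomal protein genes had nearly the same share as the members (4.21% ± 3.45). The 21 calls fell on 11 members, and 2 of them covered the main TSS, both at Rps27rt. The members called in 2 or more lists were Rpl17, in all 5 lists other than those of stem cells, Rps27rt in 4, and Rpl38, Rps14 and Rps4x in 2 each. At Rpl17 the peaks ended 2293 to 3748 bp before the main TSS, and at Rpl38 1312 and 1416 bp before it. At the Rps4x promoter in MT the edge was 371 bp away, with a maximum at percentile 0.143 of that list. The strongest Rps4x peak in GAS began 4393 bp downstream of the main TSS, and both Rps14 peaks ended upstream, 23413 and 23628 bp before it.

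The paralogs did not behave as 1 group. Over the 9 paralogs and other symbol matches H3K18la was called in 20 of 72 combinations (27.8%), H3K27ac in 23 of 45 (51.1%) and H3K4me3 in 23 of 36 (63.9%). All genes had means of 31.8%, 43.2% and 58.5% over these lists, so as a set these 9 were near the background. Rpl22l1, Rps27l, Rpl36al and Rpl7l1 had H3K4me3 in all 4 lists and H3K27ac in 4 or 5, as core genes did. Rpl10l and Rpl39l, the testis counterparts of the X-linked Rpl10 and Rpl39, had H3K18la and H3K4me3 in mESC-2i and no other call of an active mark, although MT held an H3K18la peak 2217 bp from the main TSS of Rpl39l. Rps27rt, named as a retrotransposed copy of Rps27 and 374 bp long, had H3K27me3 in 4 lists. Its H3K4me3 call in PIM came from a peak 1361 bp from the TSS, and the other 3 lists had a peak 2270 to 2397 bp away, just outside the window. Rps19bp1 encodes a binding partner of Rps19 and is no ribosomal protein, and it had H3K18la in ADIPO alone, although both stem cell lists held a peak 2124 bp from its main TSS.

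Rpl3l (chr17:24727820-24736143), the paralog of Rpl3 made in heart and skeletal muscle, was marked in muscle tissue. In GAS it had an H3K18la peak of 12201 bp at percentile 96.6 and an H3K27ac peak of 21346 bp at percentile 94.9, and an H3K4me3 peak also covered its main TSS. The strongest H3K4me3 peak among its windows there, of 3423 bp at percentile 77.8, was another one that began 6860 bp downstream. No other H3K27ac or H3K4me3 list held a peak within its windows, although each had one 2753 to 3236 bp from its main TSS. Its H3K18la calls in MT (2214 bp) and mESC-2i (4495 bp) rested on peaks at percentiles 23.0 and 9.52 whose near edges lay 3435 and 6722 bp downstream of its main TSS, beside other annotated starts. Its TSS window was not CpG-rich, with CpG at 0.171 of the expected number. Rpl3 itself had H3K27ac in 5 of 5 lists.

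Other genes of translation and ribosome assembly were set beside the family. Of 21 such genes, H3K18la was called at 16 in mESC-ser (33.4% of all genes), 18 in mESC-2i (37.8%), 3 in MB (11.1%), 14 in MT (34.8%), 15 in GAS (36.1%), 7 in BMDM (18.5%), 14 in PIM (37.8%) and 21 in ADIPO (44.7%). The members had 74, 81, 6, 43, 38, 28, 46 and 76 of 86 in the same lists, so their share was smaller in MT and GAS. H3K4me3 was called at 21 of 21 in each of its 4 lists (48.8% to 64.2% of all genes) and H3K27ac at 18 to 21 (34% to 48.8%). Eef1g, an elongation factor subunit, and Tpt1 had H3K18la in all 8 lists. Fau, whose product is a ribosomal protein fused to a ubiquitin-like part, and Npm1, the nucleolar chaperone, had it in mESC-ser, mESC-2i and ADIPO alone.

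The processed pseudogenes that carry ribosomal protein names gave a background for sequence copies. Of 292 such entries, 4.79% (MB) to 11.3% (mESC-2i and GAS) had an H3K18la peak within 2 kb, and 3.77% to 7.88% an H3K4me3 peak. The share in mESC-2i was thus 11.3% at the copies and 94.2% at the genes.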

How the data were processed

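CUT&Tag was carried out on 41 samples of 8 cell types for 4 histone marks. According to the labels and the methods of the study, the authors trimmed reads with Trim Galore (0.6.6), aligned them to mm10 with Bowtie2 (2.4.4), made coverage with bedtools (2.30) and called peaks with SEACR (1.3, stringent, top 1% of regions, no control) on pooled samples. The deposited lists give for each peak its total signal and its maximum signal, in coverage that is not comparable between lists, so that values were ranked within each list. How reads with several matches were treated is not given in the sources used here, and sequencing depth was not analysed here. The ESC lists whose names do not give the medium were taken as mESC-ser.

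Genes and TSS came from GENCODE M21 and were overlapped with the peaks on chromosomes 1 to 19 and X in Python (3.11.15) with pandas (2.3.3) and numpy (2.4.6). The overlap code was tested on simulated intervals against bedtools (2.31.1). A gene was called when 1 bp of the 2000 bp to either side of any TSS was covered. Width, percentile and position were those of the overlapping peak of highest maximum signal, and reach and distance were counted from the main TSS, chosen by APPRIS and transcript support. Promoter sequences and their starts were those of RefSeq on GRCm38.p6, for 66 members. Since each list pools its samples, no result has a replicate error or a test, and SDs are over cell types. The genes named were set examples of core, paralog and translation genes, members with H3K18la in few or all lists, and members with H3K27me3 in 2 or more. The members and lists were chosen with earlier results of these data known. Rpl17 and Rps14 were left out of the sequences, and values of 3 single members are not reported here.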

Additional observations from a re-analysis of the deposited data

Results flagged for a closer look

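Over the lists of each mark, 13 sets of values for the ribosomal protein genes were screened for a list far from the others, which chance alone gives in about 1 of 20 such sets. 1 list stood apart. The median position of the H3K4me3 maximum was 168.75 bp downstream of the main TSS in mESC-2i, and -17.0 bp in mESC-ser, -12.0 bp in GAS and -25.5 bp in PIM. All genes called in mESC-2i had a median of 158.0 bp there, so the shift was common to that list.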

How the results depend on the processing

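No paired analysis was possible because the lists pool their samples and no result comes from a test. Of 64 alternatives that kept all cell types, 51 moved a value by less than 1 SD over cell types (counts by less than 1.5 times) and 13 moved it further. With only the 5000 peaks of largest total signal in each list, the mean share of members fell to 13.1% for H3K18la, 35.1% for H3K27ac and 72.7% for H3K4me3, members with all 3 active marks to 14.3% from 58.1%, and members with H3K18la in all 8 lists to 0. With the lists of a mark reduced to equal covered bases these were 8.14% for H3K18la, 60.2% for H3K27ac, 6.59% for all 3 marks and 0 in all 8 lists. Both keep fewer peaks by construction. Core genes alone had 94.8% for H3K27ac and 99.4% for H3K4me3. Windows of 500 bp gave 1.16% for H3K27me3, and members with a window of their own left 3 with H3K18la in all 8 lists. Another 2 windows, chosen after seeing the data (1 TSS for each gene and the gene with 2 kb to either side), moved no value by that much. Leaving out each cell type gave 6 to 16 members with H3K18la in all remaining lists, with 16 reached without MB. The mean shares ranged from 51.7% to 64.1% for H3K18la, 89.0% to 91.3% for H3K27ac, 94.96% to 96.9% for H3K4me3, 3.10% to 4.07% for H3K27me3 and 47.1% to 66.9% for all 3 marks. The mean log2 ratio of H3K18la width to all called genes, -0.08 ± 0.55 (SD, 8 lists), ranged from -0.20 to 0.02, less than its SD in size. The percentile of the maximum ranged from 46.6 to 48.8 and its position from -44.7 to -3.86 bp.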
